A study of Mus musculus with 6 samples.

Results

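The 620 regions described here are sites where p300 was called in mouse macrophages after lipopolysaccharide (LPS) and not before it, where histone H3 already carried mono-methylation at lysine 4 (H3K4me1), and where no PU.1 peak was called in either state. They were selected on the deposited peak lists. The untreated and LPS p300 lists were merged into 19879 sites on chromosomes 1 to 19 and X, and a site was kept when it overlapped, by at least 1 bp, a peak of the LPS p300 list alone, a peak of the H3K4me1 list, and no peak of the untreated or LPS PU.1 list. The 620 sites made up 3.12% of all p300 sites (exact 95% binomial interval 2.88 to 3.37).

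The cells were primary macrophages grown from the bone marrow of female Fvb mice and used on day 7 of differentiation, per the labels. They were treated with LPS, a component of the outer envelope of Gram-negative bacteria, at 10 ng/ml for 2 h, or left untreated. Chromatin immunoprecipitation with sequencing of p300 was done with 2 biological replicates in LPS-treated and 2 in untreated cells. PU.1 had 1 library in LPS-treated and 1 in untreated cells, and H3K4me1 and input DNA had 1 library each, from untreated cells alone. H3K4me1 after LPS was not analysed here.

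p300 is a histone acetyltransferase that transcription factors bring to enhancers and promoters, where it acetylates histone tails. H3K4me1 is laid down by methyltransferases of the MLL family and marks both active and primed enhancers. PU.1 is the ETS family factor of the myeloid lineage. In macrophages it binds widely and is known for opening chromatin and for the deposition of H3K4me1 around its sites, while factors activated through the LPS receptor, such as NF-kB and AP-1, bind within the landscape it prepares.

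Every library served to choose these sites, input as the control of the H3K4me1 peaks. The values below therefore describe them, and no test between conditions or between groups of sites supports them. Because each library came from many cells, more p300 per cell and more cells with p300 at a site cannot be told apart. The libraries held 5744811 to 7828655 aligned reads, of which 5503587 to 6428281 were distinct in position and strand. The p300 libraries differed in enrichment between replicates, with 2.31% and 5.49% of distinct reads inside the LPS p300 peaks for LPS replicates 1 and 2, and 1.44% and 6.20% inside the untreated p300 peaks for untreated replicates 1 and 2. Input had 0.875% of its reads in the LPS p300 peaks.

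The selection ran in 3 steps. A peak of the LPS p300 list alone was present at 7568 of the 19879 sites (38.1%). No PU.1 peak overlapped 4717 of these (62.3%, exact 95% interval 61.2 to 63.4). Of those 4717 sites, 620 overlapped an H3K4me1 peak (13.1%, 12.2 to 14.1), against 1885 of the 2851 sites in the LPS list alone that carried a PU.1 peak (66.1%, 64.3 to 67.9). Seen from the mark, 24.8% of the 2505 marked sites in the LPS list alone had no PU.1 peak. The share with H3K4me1 among sites without PU.1 also differed with the list p300 was in, with 61.1% of 538 sites in both p300 lists and 13.9% of 4087 sites in the untreated list alone. These are binomial intervals on counts of sites, which treat sites as independent and cover no variation between replicates.

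The 620 sites had a median width of 588.5 bp (228 to 2452 bp). Their LPS p300 peaks carried a median score of 69.8, where the score is the authors' own measure of a peak, 10 times the −log10 of its p-value, and 50 is the lower end of the list. Over all p300 sites with an LPS peak the median score was 70.5. A score under 60 was found at 218 sites, a score of at least 100 at 157 and a score of at least 200 at 48. By group, the median score was 57.5 at the 4097 sites of the LPS list alone with neither H3K4me1 nor PU.1, 78.4 at the 1597 sites with H3K4me1 and PU.1 already there before LPS, 85.2 at the 288 sites with H3K4me1 and PU.1 after LPS only, and 106 at the 329 marked sites without PU.1 that were in both p300 lists. In this order the 620 sites stood between the unmarked sites and the marked sites with PU.1. They lay on every chromosome examined, with 58 each on chromosomes 2 and 11 and 7 on the X chromosome.

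p300 reads at the 620 sites were few in each library. The median site had 8 distinct reads in LPS replicate 1 and 17 in LPS replicate 2, against 3 in untreated replicate 1 and 7 in untreated replicate 2. After scaling of the libraries on all p300 sites, the medians were 11.6 and 11.1 normalised reads in LPS replicates 1 and 2, and 5.58 and 3.98 in untreated replicates 1 and 2. The interquartile ranges were 7.25 to 15.9 and 7.17 to 17.0 in the LPS libraries and 3.72 to 9.76 and 2.28 to 6.83 in the untreated ones. The ranges of the conditions thus overlapped across sites, although both LPS medians lay above both untreated medians.

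**Figure D1:**
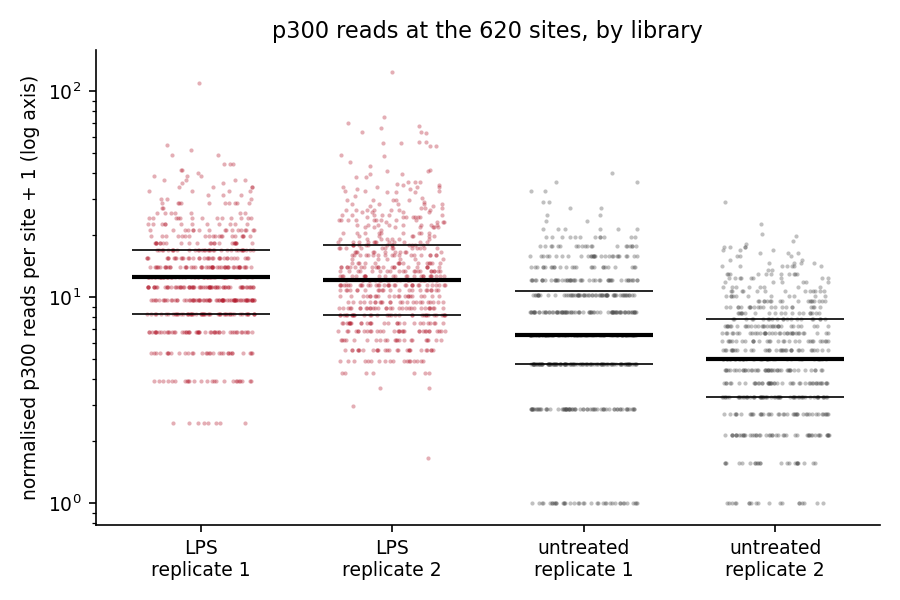
Normalised p300 reads plus 1 on a log axis at each of the 620 sites, for LPS replicates 1 and 2 and untreated replicates 1 and 2. Points are sites, the thick line is the median and thin lines are the quartiles. Medians were 11.6 and 11.1 in the LPS libraries and 5.58 and 3.98 in the untreated ones, and the clouds overlap.

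Site by site, LPS was above untreated at 496 of the 620 sites in the replicate 1 libraries and at 601 in the replicate 2 libraries, and in both at 477. Both LPS libraries exceeded both untreated libraries at 410 sites (66.1%), beside 27.0% of all p300 sites, but the choice of peaks in the LPS list alone fixes this direction. Summed over the 620 sites, scaled p300 reads were 1.73 times as high in LPS replicate 1 as in untreated replicate 1, and 2.77 times as high in LPS replicate 2 as in untreated replicate 2. Scaled by depth instead, the ratios were 2.59 and 2.47. Over all p300 sites the depth-scaled ratios were 1.51 for replicate 1 and 0.902 for replicate 2. At the 620 sites LPS replicates 1 and 2 held 2.60 and 5.96 times the reads of input per depth, and untreated replicates 1 and 2 held 1.00 and 2.41 times. Untreated replicate 1 was therefore at the level of input here, while untreated replicate 2 was above it.

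The fit of p300 over all sites (limma voom, LPS over untreated, at least 10 reads over the 4 libraries) covered 619 of the 620 sites. The median log2 fold change was 1.26 and the range was −0.27 to 4.57, with 616 sites above 0, 379 at 1 or more and 117 at 2 or more. Over all 19727 sites tested the median was 0.00. Benjamini-Hochberg adjusted p under 0.05 called 40 of the 619 sites higher and none lower, beside 1.97% of all tested sites called higher. The rule used this contrast, so nothing is read from these counts. Of the 40 called sites, 36 were among the 155 with the highest scores and 4 among the next 155.

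The size of this difference leaned on untreated replicate 2. Without that library the median log2 fold change was 0.49, with 446 of 617 sites above 0, while without any other library it was 1.34 to 1.45. The number of calls also changed with the library left out. With total or background reads as library size limma voom made 0 calls, among the 620 sites and over all sites. At an unadjusted p under 0.05, 61 and 46 of the 620 sites were then higher, beside 1027 and 956 of all sites. Of the 620 sites, 5 had no untreated p300 read in either library, and 4 of these were in the fit. With those 4 set at a bound of 3 reads over the untreated libraries the median stayed at 1.26. So few sites can hardly move a median, so nothing is read from this.

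The label of these sites as free of p300 before LPS rests on the peak list. Untreated p300 reads of both replicates together exceeded input, with an exact 95% interval of the depth-scaled ratio above 1, at 53 of the 620 sites (8.55%), beside 46.9% of all p300 sites. In the LPS list alone the share was 7.95% at marked sites with PU.1 before LPS and 6.94% at those with PU.1 after LPS only. With so few reads, a site not above input is not shown to be free of p300. Untreated replicate 1 alone exceeded input at 11 sites and untreated replicate 2 alone at 151. For single libraries the share over all p300 sites was not taken, so nothing is read from these counts. Summed over all p300 sites, untreated replicates 1 and 2 held 1.46 and 5.54 times the reads of input per depth. A peak of the untreated p300 list, outside the site, lay within 1 kb of the LPS p300 maximum at 53 sites and within 10 kb at 262. The LPS p300 maximum is here the densest window of 101 bp in the pooled LPS p300 reads of a site.

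Around the LPS p300 maximum, p300 formed a narrow peak. Mean density within 100 bp of the maximum was 3.81 and 10.0 RPKM (distinct reads per kb and per 1000000 distinct reads of the library) in LPS replicates 1 and 2, and 1.06 and 3.495 in untreated replicates 1 and 2. At 1500 to 2000 bp from the maximum it was 0.918 and 1.68 in the LPS libraries and 0.734 and 1.39 in the untreated ones. The height of the LPS peak is partly set by centring on LPS reads. Untreated reads took no part in the centring, and in untreated replicate 2 density at the centre was 2.52 times that of the outer zone, against 1.44 times in untreated replicate 1 and 1.17 times in input.

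**Figure D2:**
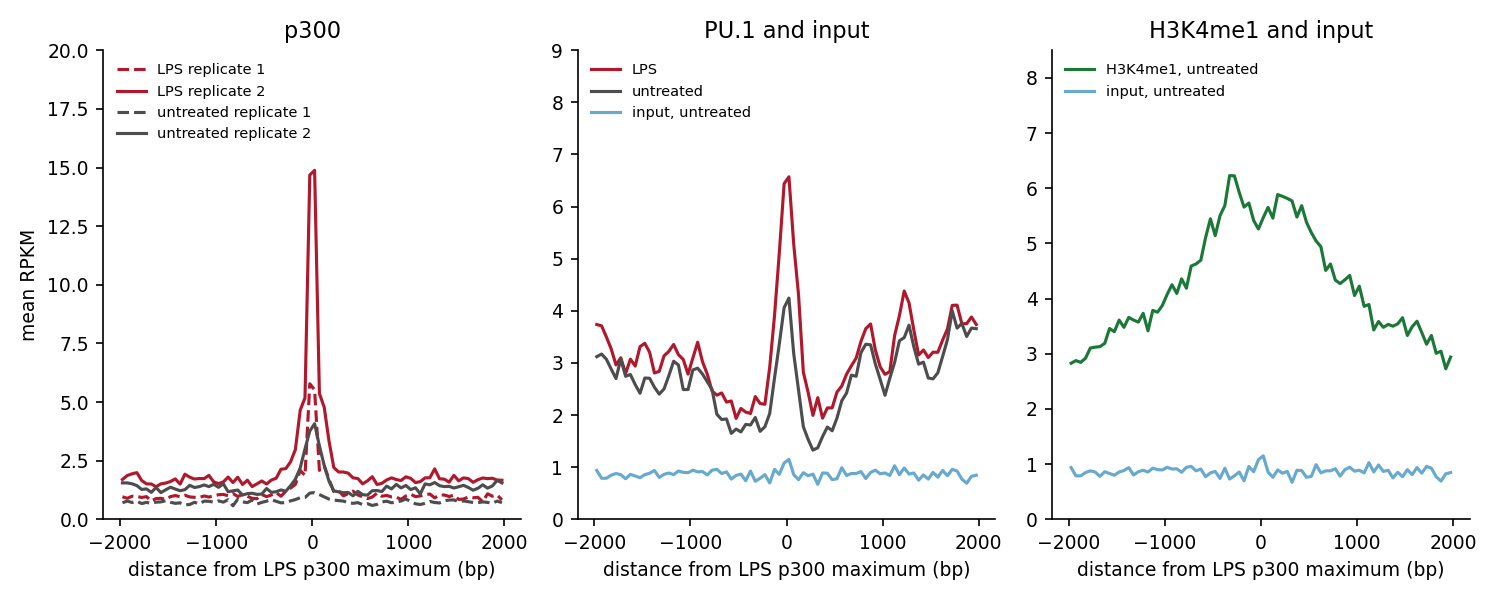
Mean RPKM of distinct reads in 50 bp bins across the 620 sites, by distance in bp from the LPS p300 maximum. The left panel shows p300 in the 2 LPS and 2 untreated libraries, the middle panel PU.1 in the LPS and untreated libraries with input, and the right panel H3K4me1 and input from untreated cells. p300 and PU.1 peak at the centre, PU.1 dips beside it, and H3K4me1 forms a broad dome.

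H3K4me1 before LPS was broad and strong at these sites, as the choice of an H3K4me1 peak requires. Within 1 kb of the site centre the log2 ratio of H3K4me1 to input had a median of 2.38 (quartiles 1.93 and 2.86, range 0.44 to 4.69). The medians were 2.20 at marked sites of the LPS list alone with PU.1 after LPS only, 2.33 at those with PU.1 before LPS, 2.55 at marked sites without PU.1 in both p300 lists, and −0.74 at unmarked sites without PU.1. The marked groups overlapped widely in their quartiles. The widest H3K4me1 peak of each of the 620 sites had a median width of 954 bp, and the highest H3K4me1 score of each a median of 193. Over all 84743 H3K4me1 peaks the medians were 646 bp and 112. At the 106 sites with more than 1 H3K4me1 peak, taking the largest can raise the site values. A wide peak is more easily hit by an overlap of 1 bp.

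The position of p300 within the mark varied. The LPS p300 maximum lay inside an H3K4me1 peak at 473 of the 620 sites (76.3%), and at 53 it lay outside with H3K4me1 peaks within 1 kb on both sides. H3K4me1 covered the whole site at 221 and at least 50% of it at 517. The median cover was 90.6% and the lowest 0.227%, at the edge of the rule. At 514 sites a single H3K4me1 peak was involved and at 106 more than 1.

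Active enhancers often show a dip of methylated histone at their centre, where the nucleosome gives way to bound factors. Averaged over the 620 sites the dip was shallow, with 5.45 RPKM of H3K4me1 within 100 bp of the p300 maximum and 5.72 RPKM at 200 to 500 bp from it, a ratio of 0.952. The ratio was 0.930 at sites with PU.1 after LPS only, 0.872 at marked sites without PU.1 in the untreated p300 list alone, 0.677 at sites with PU.1 before LPS and 0.592 at marked sites without PU.1 in both p300 lists. The last 2 groups, with PU.1 before LPS or p300 in both states, thus had the deeper dips in untreated cells. Every group was centred on its LPS p300 maxima, which differed in strength. In LPS replicate 2 the p300 density within 100 bp was 13.2 and 16.9 RPKM in those 2 groups. It was 10.0 at the 620 sites, 11.4 with PU.1 after LPS only and 4.31 in the group of the untreated list alone. Whether the depth of the dip follows how well the centre was placed was not tested. Input had ratios of 1.10 to 1.23 in these 5 groups, and the H3K4me1 ratios are not corrected for it. Each group rests on the same single H3K4me1 library, so this is a description of that library.

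PU.1 reads were present at many of the 620 sites although no peak was called. The median site had 11 PU.1 reads in the LPS library and 6.5 in the untreated library, with ranges of 0 to 174 and 0 to 99. Summed over the 620 sites, PU.1 reads per depth were 4.22 times those of input in the LPS library and 2.74 times in the untreated one. An exact 95% interval of the ratio to input lay above 1 at 305 of the 620 sites in the LPS library (49.2%), beside 55.7% of all p300 sites, and at 159 in the untreated library (25.6%), beside 52.9% of all p300 sites. The name "without PU.1" therefore means without a called peak. At 292 sites PU.1 exceeded input in neither library. The share of all p300 sites above input in neither was not taken, so nothing is read from this count.

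More PU.1 reads were found after LPS than before. Summed over the 620 sites, 9951 reads in the LPS library stood against 6196 in the untreated library, a scaled ratio of 1.61 (exact 95% interval 1.56 to 1.66), where 87958 PU.1 sites set the scaling. Reads were more numerous after LPS at 453 sites, fewer at 119 and equal at 48. The median log2 ratio, with 0.5 reads added, was 0.64, with quartiles of 0 and 1.28. The interval of a single site lay above 1 at 137 of 620 sites (22.1%), beside 9.45% of all p300 sites, and below 1 at 3 (0.484%), beside 4.12% of all p300 sites. Each condition had 1 PU.1 library, so the interval compares those libraries and not the conditions. The absence of PU.1 peaks in both lists, which the rule demands, bounds the levels on either side.

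Other groups of sites from the same libraries had summed PU.1 ratios on both sides of this value. The ratio was 1.68 (1.62 to 1.74) at unmarked sites of the LPS list alone without PU.1, 2.47 (2.37 to 2.57) at marked sites where a PU.1 peak was called after LPS only, and 1.26 (1.25 to 1.27) where PU.1 was there before LPS. It was 1.06 (1.03 to 1.10) at marked sites without PU.1 in both p300 lists, 0.827 (0.801 to 0.853) at marked sites without PU.1 in the untreated p300 list alone, and 1.05 over all p300 sites. The ratio above 1 at the 620 sites was thus shared with every group of the LPS list alone that was examined. It was below 1 at the marked sites without PU.1 in the untreated list alone, and no other group of that list alone was examined.

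**Figure D3:**
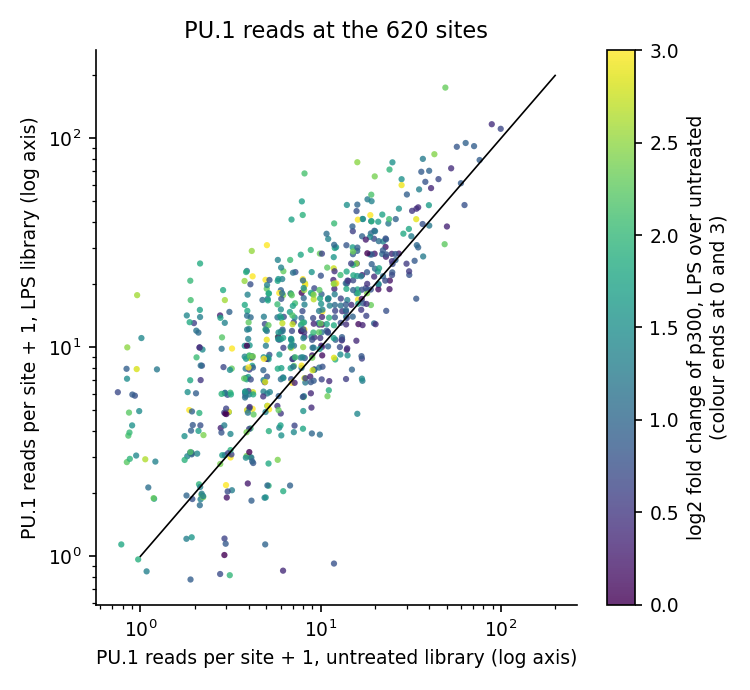
PU.1 reads plus 1 at each of the 620 sites, in the LPS library (vertical, log axis) and the untreated library (horizontal, log axis), with a small random offset so that equal counts do not hide each other. The line marks equal counts and the colour gives the log2 fold change of p300, LPS over untreated. Of the points, 453 lie above equality, 119 below it and 48 on it before the offset.

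PU.1 reads were concentrated at the p300 maximum. Density within 100 bp of it was 5.85 RPKM in the LPS library and 3.71 in the untreated one. At 200 to 500 bp it was 2.17 in the LPS library and 1.67 in the untreated one, and at 1500 to 2000 bp it was 3.46 and 3.15 in the same order. Input had 0.988 at the centre and 0.844 in the outer zone. A central peak below the calling threshold thus stood between lower flanks, with more PU.1 farther out. The exclusion of sites that overlap a PU.1 peak itself lowers the density beside the centre. The other marked groups without PU.1 had the same shape in the LPS library, with 9.70, 2.23 and 5.18 RPKM at the centre, at 200 to 500 bp and in the outer zone for sites in both p300 lists, and 5.40, 1.78 and 3.68 for sites in the untreated list alone. At marked sites with PU.1 before LPS the centre held 34.5 in the LPS library and 28.8 in the untreated one, with 1.68 and 1.39 in the outer zone.

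Called PU.1 peaks were close by. The nearest PU.1 peak of either list lay a median of 1554 bp from the LPS p300 maximum (quartiles 788 and 3059 bp, range 138 to 98540 bp). It was within 1 kb at 206 sites, within 5 kb at 544 and within 10 kb at 588. The median distance was 9952 bp at unmarked sites without PU.1 and 1376 bp at marked sites without PU.1 in both p300 lists. The marked sites without PU.1 peaks therefore lay near PU.1 peaks, while the unmarked ones were spread over greater distances.

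**Figure D4:**
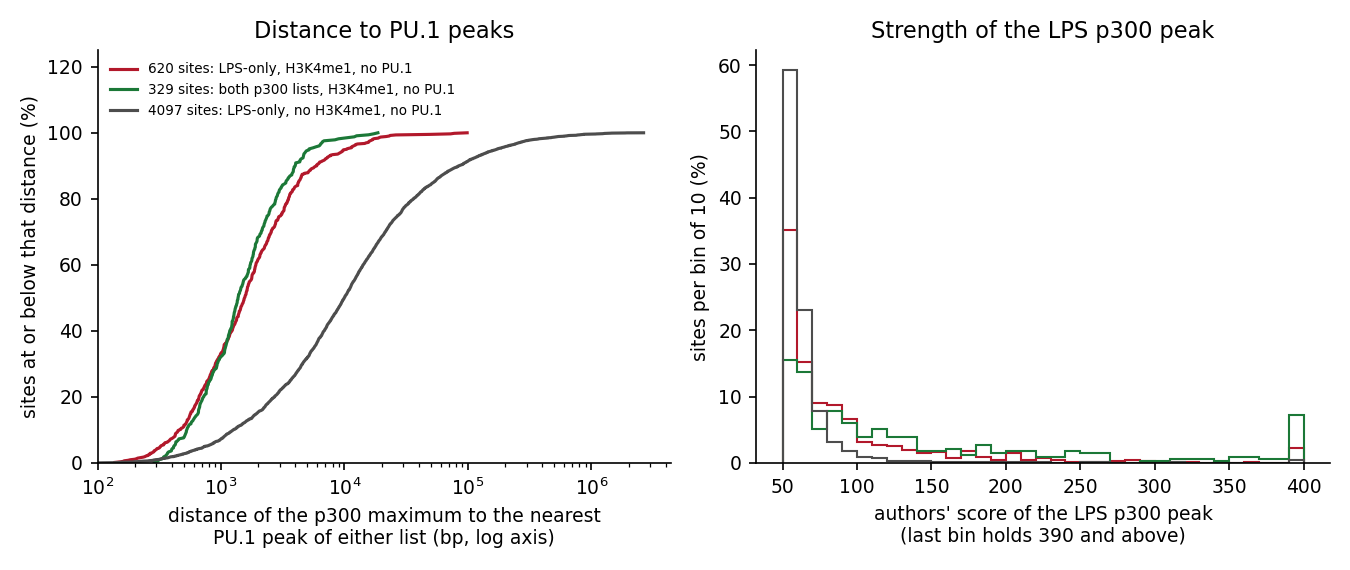
Left panel, share of sites in percent whose LPS p300 maximum lies at or below a given distance in bp (log axis) from a PU.1 peak of either list. Right panel, share of sites in percent per 10 units of the authors' LPS p300 score, with the highest scores gathered in the last bin. Red is the 620 sites, green the 329 marked sites without PU.1 in both p300 lists and grey the 4097 unmarked sites without PU.1. The median distances are 1554, 1376 and 9952 bp.

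The intervals of the PU.1 ratio overlapped between sites near to and far from PU.1 peaks. The ratio was 1.63 (1.57 to 1.70) at the 445 sites whose edge was more than 500 bp from a PU.1 peak and 1.56 (1.47 to 1.64) at the 175 nearer ones. At the 76 sites whose p300 maximum was more than 5 kb from any PU.1 peak it was 1.43 (1.24 to 1.65). At the 48 sites with at most 2 PU.1 reads in each library, 57 LPS and 53 untreated reads were found. The limit of 2 reads in both libraries restricts what their ratio can be, so the ratio is not compared. These 48 sites had a median p300 log2 fold change of 1.34.

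Divided by whether PU.1 exceeded input, the 620 sites fell into 4 groups, whose sizes were not set beside those of all p300 sites. The 169 sites above input in the LPS library alone had a PU.1 ratio of 2.69, which follows from how they were drawn, and a median p300 log2 fold change of 1.41. The 292 sites above input in neither library had a p300 median of 1.34, the 136 above input in both had 0.93, and the 23 above input in the untreated library alone had 0.77. Across the 619 fitted sites the change of p300 and that of PU.1, both on the log2 scale, had a Pearson's r of 0.238 and a Spearman's rho of 0.279, and across the 293 sites with at least 20 PU.1 reads 0.433 and 0.477. The log2 change of p300 against the log2 ratio of H3K4me1 to input had r of −0.139 and rho of −0.157. These points share their libraries, so the coefficients are descriptions. The log2 ratios of p300 in the replicate 1 and replicate 2 libraries had r of 0.062 and rho of 0.020 across the same sites.

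The sites were divided by the authors' score into 4 groups of 155. The group with the highest scores (100.3 to 1223) had a median p300 log2 fold change of 1.58, and the 3 other groups had 1.06, 1.04 and 1.13 from the lowest scores upward. The PU.1 ratio over the 4 groups, from the lowest score to the highest, was 1.26, 1.499, 1.59 and 1.88. The H3K4me1 medians were 2.38, 2.49, 2.33 and 2.36 in the same order. The PU.1 ratio thus went up with the LPS p300 score, and the level of H3K4me1 before LPS did not follow it.

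The member with the highest score (1223) lay on chromosome 19 from 6944501 to 6946953, in coordinates of mouse build mm9 as the peak lists give them. It had 109 and 123 normalised p300 reads in the LPS libraries and 27.9 and 18.8 in the untreated ones, so the conditions did not overlap. The log2 fold change was 2.30 ± 0.57 (SE of the fit, n = 2 each). PU.1 had 174 reads in the LPS library and 48 in the untreated one, a ratio of 3.62 (2.62 to 5.10). The 174 reads were the most of any of the 620 sites in the LPS library, at the widest of these sites (2452 bp). In the untreated library the highest count was 99. The nearest called PU.1 peak was 1142 bp from the p300 maximum.

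The second score (1036) belonged to a site on chromosome 6 from 21947910 to 21948847. It had 53.6 and 74.4 normalised p300 reads in the LPS libraries, against 7.44 and 5.69 in the untreated ones. Its log2 fold change of 3.30 ± 0.62 (SE, n = 2 each) also placed it among the 10 largest changes of the 187 members with at least 40 p300 reads and no overlap between conditions, chromosome 18 left out. PU.1 differed less there, with 19 reads in the LPS library and 11 in the untreated one (ratio 1.73, 0.781 to 4.02).

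On chromosome 11 from 83478652 to 83480026 the fourth score (681) came with the largest PU.1 ratio of the 10 highest scores. PU.1 had 67 reads in the LPS library and 7 in the untreated one, a ratio of 9.57 (4.398 to 24.7). p300 had 43.5 and 69.1 normalised reads in the LPS libraries and 9.30 and 13.1 in the untreated ones, a log2 fold change of 2.12 ± 0.57 (SE, n = 2 each). A second member lay upstream in coordinate, and together they spanned 9490 bp from 83470536.

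The other 7 of the 10 highest scores lay on chromosomes 4 (2 sites), 6 (2 sites), 9, 10 and 12, with scores of 458 to 814 and log2 fold changes of 1.80 to 2.69. At all 10 both LPS libraries exceeded both untreated ones, and 9 of the 10 were among the called sites. On chromosome 9 from 123753734 to 123754773 p300 had 43.5 and 62.0 normalised reads in the LPS libraries and 14.9 and 8.54 in the untreated ones, with 27 PU.1 reads after LPS and 9 before. At the site on chromosome 12 from 27153723 to 27155220 PU.1 had 34 reads in the LPS library and 28 in the untreated one, a ratio of 1.21 (0.715 to 2.08).

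**Figure D5:**
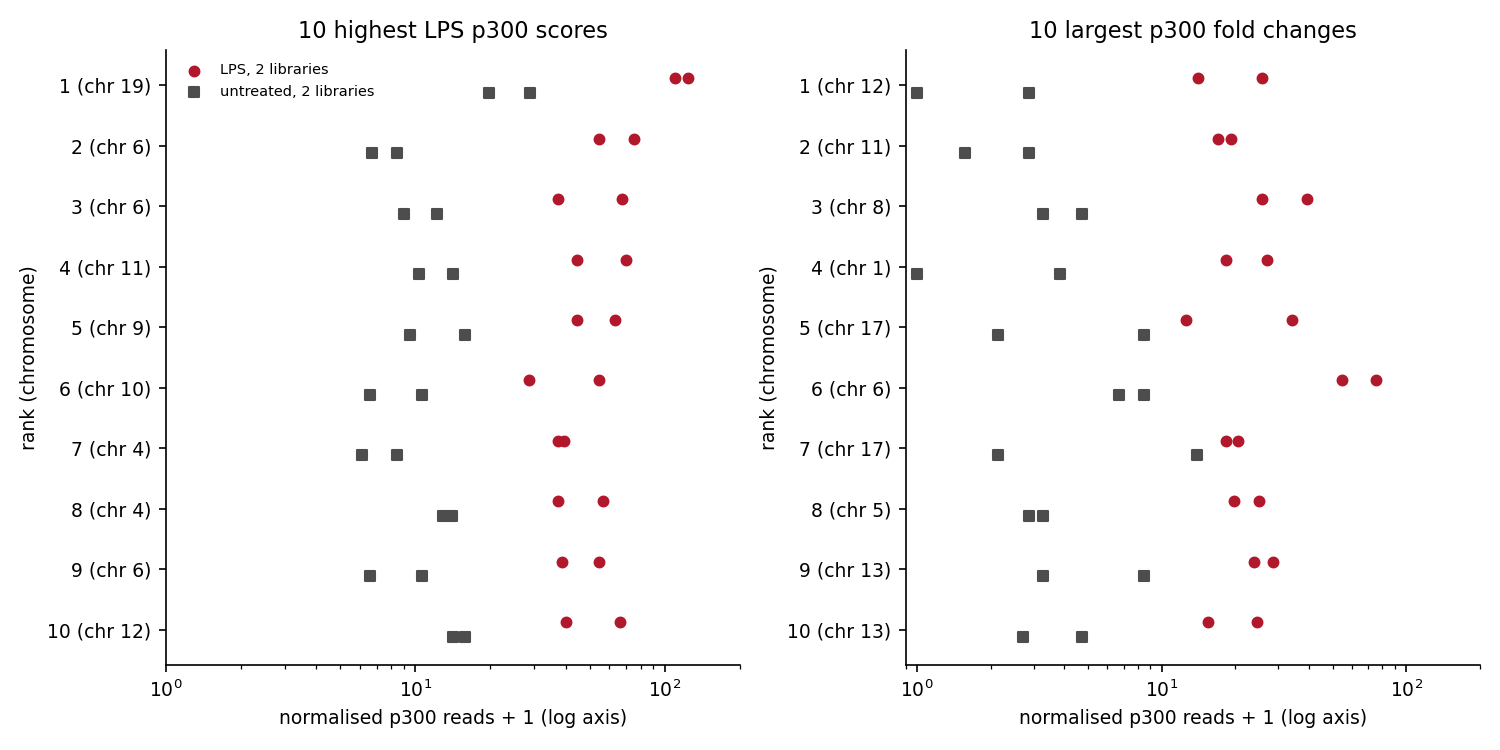
Normalised p300 reads plus 1 on a log axis for the 10 members with the highest LPS p300 scores (left panel) and the 10 with the largest log2 fold changes among 187 eligible members (right panel), ranked from the top and labelled by chromosome. Red circles are the 2 LPS libraries and grey squares the 2 untreated ones. In every row both circles lie to the right of both squares, which the naming rule required in the right panel.

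Among members with at least 40 p300 reads and no overlap between conditions, the 2 largest fitted changes were at sites with 1 or 2 untreated p300 reads in all. On chromosome 12 from 120328574 to 120329237, 9 and 38 p300 reads in LPS replicates 1 and 2 stood against 1 and 0 in the untreated replicates. The scaled ratio was 48.5 with a counting interval of 8.29 to 1956. On chromosome 11 from 103470636 to 103471341, 11 and 28 LPS reads stood against 1 and 1 untreated reads, a ratio of 20.1 (5.21 to 172). At such counts the fitted folds are imprecise, with log2 fold changes of 4.57 ± 1.25 and 3.77 ± 1.13 (SE, n = 2 each). The intervals sum the reads of both replicates and cover counting error only.

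On chromosome 8 from 42079246 to 42080022 there were 17 and 59 p300 reads in the LPS libraries and 2 and 4 in the untreated ones, with a log2 fold change of 3.41 ± 0.79 (SE, n = 2 each). PU.1 at the chromosome 12 site had 42 reads after LPS and 18 before. At the chromosome 8 site it had 19 and 7, and at a member on chromosome 5 from 107043628 to 107044324 it had 6 in both libraries. The PU.1 ratios were 2.33 (1.31 to 4.31), 2.71 (1.09 to 7.64) and 1.00 (0.267 to 3.74) at these 3 sites, so their intervals overlapped. The chromosome 5 site lay 16529 bp from the nearest PU.1 peak and had 18.8 and 24.1 normalised p300 reads in the LPS libraries against 1.86 and 2.28 in the untreated ones.

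At the lower end of the list, the 3 members with the lowest scores (50.06, 50.07 and 50.10) showed little difference in p300. They lay on chromosome 11 from 83382298, chromosome 10 from 128227393 and chromosome 2 from 44970192. Normalised p300 reads averaged 9.06 ± 3.59, 14.7 ± 0.361 and 7.14 ± 1.90 in LPS-treated cells, against 7.13 ± 0.429, 15.4 ± 9.74 and 7.42 ± 0.0265 in untreated cells (SD, n = 2 each). The log2 fold changes were 0.16, 0.30 and 0.05, each with an SE above its size. At these sites the libraries of the conditions overlapped. On chromosomes 10 and 2 the mean was lower after LPS while the fitted change was above 0, so no direction is given for them.

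The border set by PU.1 was as narrow. The site that missed membership by the smallest overlap, on chromosome 1 from 173991855 to 173993096, shared 6 bp with a PU.1 peak and had 8 PU.1 reads in the LPS library and 1 in the untreated one. On chromosome 19 a site starting at 5878305 was left out for 9 bp, with 14 and 7 PU.1 reads after and before LPS, and on chromosome 2 a site starting at 144267529 for 24 bp, with 1 and 0. Among members, a site on chromosome 2 starting at 180315446 touched a PU.1 peak with a gap of 0 bp, and sites on chromosomes 10 and 1 starting at 117609494 and 179190391 were 8 and 10 bp away. PU.1 reads at these 3 members were 5, 10 and 11 after LPS and 3, 8 and 3 before. The PU.1 counts on the inner and outer side of the border thus overlapped.

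Many members lay near other p300 sites. A site of both p300 lists lay within 20 kb of 260 of the 620 members (41.9%), against 6.86% of unmarked sites without PU.1 in the LPS list alone and 29.8% of marked sites there with PU.1 before LPS. Another member lay within 20 kb of 78 (12.6%), in 36 pairs and 2 groups of 3. The groups of 3 were on chromosome 4 from 144849894 to 144873971 and on chromosome 6 from 51705744 to 51710728, and each held a site among the 10 highest scores. The 260 members near a site of both lists had a PU.1 ratio of 1.70 (1.63 to 1.78) and a median p300 log2 fold change of 1.28, close to the values of all 620.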

How the data were processed

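The deposited files hold aligned reads of 36 bp and peak lists. Positions are on mm9, the mouse build given by the submitters' processing notes. Each peak has a score, which is 10 times the −log10 of the p-value of the authors' caller, by the column notes deposited with the series. Per the file headers the caller was MACS, with libraries named naked for p300 and random for PU.1, and input for H3K4me1, as controls. The p300 lists are of pooled replicates, per the series' design text. The aligner and the version of MACS are not given in the sources used here.

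From these, 1 distinct read was kept per position and strand, its 5′ end was moved 100 bp downstream, and reads were counted per site. Libraries of p300 were put on 1 scale with median-of-ratios factors from all sites and fitted by limma 3.58.1 voom (R 4.3.3) on treatment alone, with a variance common to all sites and Benjamini-Hochberg adjustment at 0.05. Normalised reads are counts over scaled library size, times the mean size. H3K4me1 ratios were depth scaled with 1 read added. Ratios of 2 libraries carry exact conditional 95% intervals. These intervals cover counting error only, since the reads carry no molecular identifiers. The code was tested on simulated data.

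Replicate numbers of p300 come from the names of the read files. The track line of the PU.1 list for untreated cells mentions LPS. Peaks of that list alone held 112983 LPS and 205573 untreated reads, and peaks of the LPS list alone 209142 LPS and 99960 untreated reads. Each list was used under its label, and the members need both lists, so a swap would not change them. The site and group definitions were chosen with earlier results of these data known. Named sites, none on chromosome 18, are the 10 highest scores, the 10 largest fitted changes among members with at least 40 reads and no overlap of libraries, the 3 lowest scores and the 3 sites nearest the PU.1 border on each side. Genes, cell type markers, motifs and sequences at the sites were not analysed here, since no annotation or genome of mm9 was used. Alternatives covered the overlap, peak scores, distance to PU.1, library scaling, read filter, duplicates, shift, model, replicate block and leaving out each p300 library.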

Additional observations from a re-analysis of the deposited data

How the results depend on the processing

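The number of sites was 616 with an overlap of at least 50 bp, 445 with no PU.1 peak within 500 bp and 457 with H3K4me1 scores of at least 100, and 157 with LPS p300 scores of at least 100. When library size was taken from total reads or from background bins, limma voom called 0 of all sites higher, 0 lower and 0 of the members (smallest adjusted p 0.583 and 0.618, with 1027 and 956 of all sites higher at an unadjusted p under 0.05). There the log2 fold change had a median of 0.20 and 0.16 over all sites and of 1.23 and 1.21 over the members. With all reads kept, 76 sites were called lower, against 42. The replicate block, whose numbers are not known to mark shared cultures, gave 896 higher and 395 lower calls over all sites, against 388 and 42 without it, and 93 members, with a member median of 1.08. Leaving out 1 p300 library at a time gave 33 to 488 higher and 0 to 695 lower calls, 1 to 53 called members and a member median of 0.49 to 1.45. The lowest count of higher calls and the lowest median came without untreated replicate 2, and the cause was not tested. The PU.1 ratio was 1.52 within 500 bp of the site centre and 1.54 with total distinct reads, against 1.61. The H3K4me1 median stayed between 2.10 and 2.49. The 19 named members with the highest scores or largest changes did not turn direction under any alternative, which their naming makes likely. Their log2 fold changes moved by over 1.5 times at 3 with limma-trend, which gave a member median of 0.88, and at 7 without untreated replicate 2. Without that library the 19 ranged from 0.28 to 4.39. Depth also limits single sites, since the median member had 3 to 17 p300 reads per library.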
